A study of Gallus gallus with 4 samples.

Results

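Genes of mitosis and chromosome segregation were examined in the trachea of chickens kept in air with hydrogen sulfide, a toxic gas of poultry houses, and of chickens kept without it. The set was chosen by gene name: kinetochore and centromere genes (CENP, SKA, NDC80, NUF2, SPC24 and SPC25), spindle checkpoint genes (BUB and TTK), Aurora and polo-like kinases, A-type and B-type cyclins with CDK1 and CDC20, condensin subunits, 11 mitotic kinesin names, genes of the spindle and of cytokinesis, survivin (BIRC5) and MKI67, each with 20 or more reads over the 4 libraries. It holds 68 of the 26296 genes in the table, and every row that matched by name also met the read minimum. The lowest total was 22 reads, for CENPA, and the next lowest 161 reads. PLK1S1 and AURKAIP1 matched through their first letters alone and are described apart.

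Total RNA came from tracheas of birds 42 days old. The exposed birds breathed hydrogen sulfide at 3.5 to 4.5 mg/kg during weeks 0 to 3, then 19.5 to 20.5 mg/kg during weeks 4 to 6, in a chamber of their own. The control birds lived in another chamber, to which none was added, so effects of the gas and of the chamber cannot be told apart. There are 2 libraries per group. The labels give no strain and do not say how many birds a library holds or whether those of a group came from different birds. P-values therefore measure the spread between these libraries. The sex chromosome levels given below differed within each group, so the libraries of a group were not repeats of the same sample. How much of their spread is technical is not known.

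A cell enters mitosis when cyclin B activates CDK1. Aurora and polo-like kinases then help to build the spindle, condensin packs the chromosomes, and kinetochores, assembled on the centromere, bind the spindle microtubules. The spindle checkpoint holds back the anaphase-promoting complex and its activator CDC20 until all chromosomes are attached, after which the sister chromatids part and the cell divides. Many of these genes are transcribed mainly in the later phases of the cell cycle, so their RNA in a tissue is widely used as a measure of dividing cells. In an airway, such cells include basal cells of the epithelium and lymphocytes of the mucosa.

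The libraries held 22283320 and 22706119 reads in the exposed group and 17400644 and 16899066 in the control group, and no pair of libraries agreed within sampling noise (a chi-square of 64.7 to 112 for each degree of freedom). The most alike pair was hydrogen sulfide replicate 2 with control replicate 2, at 64.7. The exposed pair had 74.8, the control pair 105, and the remaining pairs across groups 83.2 to 112. By this measure the libraries did not group by exposure. Within each group the libraries differed in sex chromosome level. Genes of the W chromosome, which only hens carry, took 488 and 151 CPM in hydrogen sulfide replicates 1 and 2, and 136 and 489 CPM in control replicates 1 and 2. CPM are a gene's reads relative to the size of its library, which was scaled by the TMM method. Hydrogen sulfide replicate 1 and control replicate 2 thus resembled each other in this respect, as did hydrogen sulfide replicate 2 and control replicate 1. Chromosomes were taken from a RefSeq gene table of assembly GRCg7b.

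Most mitosis genes had a lower level in the exposed tracheas. Of the 68 genes, 67 had enough reads to be tested with edgeR's quasi-likelihood test, and 59 of these had a lower fitted level after exposure, against 48.4% of the 16545 genes tested. In 56 of the 67 the levels of both exposed libraries lay below those of both controls, against 17.2% of all genes tested. None was higher in both exposed libraries than in both controls, against 15.3% of all genes tested. The median log2 fold change, exposed over control, was -0.87, and over all genes tested it was 0.01. Among the tested genes the fold ran from 0.363 for PLK1 to 1.32 for SKA1.

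No gene passed an adjusted p under 0.05 in the edgeR fit (Benjamini-Hochberg over all 16545 genes, 0% called), and the adjusted p of the mitosis genes ran from 0.571 to 0.999. At an unadjusted p under 0.05, 47 of the 67 were lower, against 3.48% of all genes tested, and 0 were higher, against 2.12%. Without hydrogen sulfide replicate 1 the count of 47 became 28 of 68 (2.56% of all genes tested), and without hydrogen sulfide replicate 2 it became 24 of 68 (1.3%). Without control replicate 1 it was 35 of 68 (3.69%), and without control replicate 2 it was 33 of 67 (3.26%). DESeq2 called 132 genes, or 0.798%, at an adjusted p under 0.05. Of these, 12 were mitosis genes, all lower: PLK1, AURKA, KIF11, CCNB2, ASPM, KIF20A, NCAPH, BUB1B, BUB1, CCNA2, TPX2 and KIF4A. Their DESeq2 adjusted p ran from 6.34e-04 for PLK1 to 0.0406 for KIF4A. These are bulk tissue libraries, in which fewer cells of a type and less RNA per cell cannot be told apart.

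**Figure D1:**
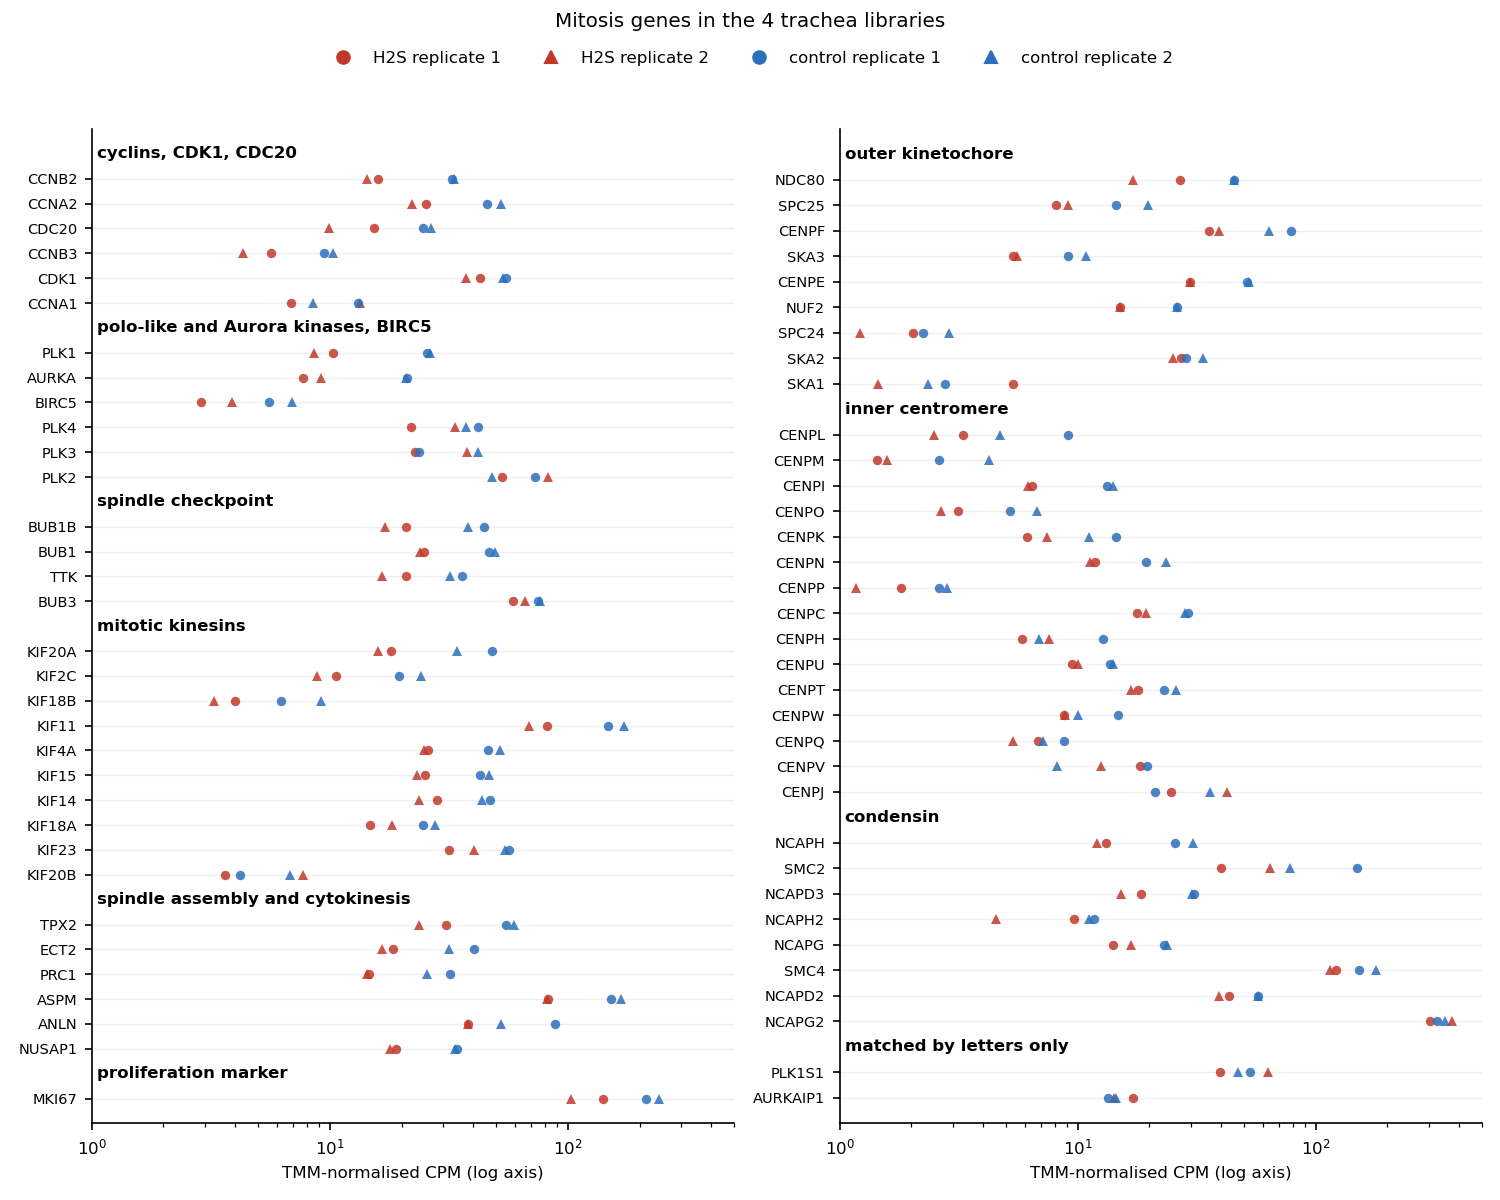
Level of each tested mitosis gene in each library, in TMM-normalised CPM on a log axis, grouped by role, with hydrogen sulfide libraries in red and control libraries in blue. For 56 of the 67 genes both red points lie to the left of both blue ones, and they overlap for PLK2, PLK3, CCNA1, CENPH, CENPJ, CENPV, KIF20B, SKA1, NCAPG2, PLK1S1 and AURKAIP1.

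Among the cyclins and their partners, 5 of 6 genes were lower without overlap, against 17.2% of all genes tested. CCNB2, a B-type cyclin that activates CDK1, stood at 16.0 and 14.3 CPM in the exposed libraries, against 32.7 and 33.3 CPM in the control libraries (log2 fold change -1.12, SE 0.18). The reference table now lists this gene as CCNB1, with CCNB2 as an older name. CCNA2, the cyclin of S phase and early mitosis, stood at 25.2 and 22.0 CPM in the exposed libraries, against 45.6 and 52.2 CPM in the controls (log2 fold change -1.05, SE 0.18). For both genes the libraries of a group lay close together and the groups far apart. CDC20, which activates the anaphase-promoting complex, stood at 15.3 and 9.95 CPM against 24.5 and 26.6 CPM in the controls (-1.02, SE 0.27), and CCNB3 had a log2 fold change of -0.99 (SE 0.28).

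CDK1 itself, the kinase that these cyclins bind, differed less in size. Its levels were 42.6 and 37.2 CPM in the exposed libraries and 55.0 and 53.4 CPM in the controls (log2 fold change -0.44, SE 0.16). CCNA1, which in mammals is known mainly from the male germ line, stood at 6.85 and 13.4 CPM in the exposed libraries and at 13.1 and 8.50 CPM in the controls, so its groups overlapped.

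Of the 6 genes for kinases and survivin, 4 had a lower level without overlap, against 17.2% of all genes tested. PLK1, the polo-like kinase that acts at centrosomes, kinetochores and the midbody, had the largest log2 fold change in size among the 67 tested genes, at 10.3 and 8.60 CPM in the exposed libraries against 25.6 and 26.4 CPM in the controls (log2 fold change -1.46, SE 0.21). AURKA, the Aurora kinase of the spindle poles, followed with 7.69 and 9.18 CPM against 21.0 and 20.9 CPM in the controls (-1.31, SE 0.22). In both genes the gap between the groups was many times the gap within either group. BIRC5, or survivin, a subunit of the chromosomal passenger complex, stood at 2.87 and 3.89 CPM against 5.56 and 6.90 CPM in the controls (-0.88, SE 0.33). PLK4, the kinase that starts centriole duplication, had 21.9 and 33.6 CPM against 42.0 and 37.4 CPM in the controls (-0.52, SE 0.26).

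PLK2 and PLK3, known as stress-responsive and immediate early kinases rather than as mitotic ones, showed no such gap. PLK3 stood at 22.9 and 37.6 CPM in the exposed libraries and 23.7 and 41.8 CPM in the controls (log2 fold change -0.11, SE 0.39). PLK2 stood at 53.0 and 82.8 CPM in the exposed libraries and 72.5 and 47.9 CPM in the controls (0.17, SE 0.32). The libraries of each group differed more from each other than the groups did, for both genes.

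All 4 checkpoint genes were lower without overlap, against 17.2% of all genes tested, though by unequal amounts. BUB1B, which encodes the checkpoint protein BUBR1, stood at 20.8 and 17.0 CPM in the exposed libraries against 44.4 and 38.0 CPM in the controls (log2 fold change -1.12, SE 0.20). The checkpoint kinase BUB1 had 24.9 and 23.9 CPM against 46.5 and 49.2 CPM in the controls (-0.97, SE 0.16), and the checkpoint kinase TTK 20.8 and 16.6 CPM against 36.0 and 31.9 CPM (-0.86, SE 0.21). BUB3, which also binds spliceosome components and is expressed in cells that do not divide, differed least, at 59.0 and 65.9 CPM in the exposed libraries and 74.8 and 76.2 CPM in the controls (-0.27, SE 0.15).

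Of the 10 kinesins measured, 9 were lower without overlap, against 17.2% of all genes tested. Each of the 9 had an unadjusted edgeR p under 0.05, against 3.48% of all genes tested that were lower at that p. The median log2 fold change of the 10 was -0.92. KIF20A, which carries the passenger complex to the central spindle, had the largest difference, at 18.0 and 16.0 CPM in the exposed libraries against 47.8 and 34.3 CPM in the controls (-1.27, SE 0.23). KIF11, the motor that pushes the spindle poles apart, stood at 81.7 and 68.9 CPM against 148 and 173 CPM in the controls (-1.09, SE 0.18). The chromosome-bound motor KIF4A stood at 25.8 and 24.9 CPM against 46.3 and 51.9 CPM in the controls (-0.96, SE 0.16). For KIF4A the exposed libraries held about the same level as each other, while those of KIF11 differed more.

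The microtubule depolymerase KIF2C (-1.17, SE 0.24) and KIF18B (-1.09, SE 0.34) lay close to KIF20A. KIF15, KIF14, KIF18A and KIF23 ran from -0.89 to -0.63. KIF20B, a relative of KIF20A that is also known from neurons, was the exception, at 3.61 and 7.69 CPM in the exposed libraries and 4.20 and 6.79 CPM in the controls (0.04, SE 0.49).

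All 6 genes of spindle assembly and cytokinesis were lower without overlap, against 17.2% of all genes tested. Their log2 fold changes lay within the narrow range of -1.07 to -0.87. ASPM, which holds microtubules at the spindle poles, stood at 82.3 and 81.5 CPM in the exposed libraries against 151 and 167 CPM in the controls (-0.96, SE 0.15). TPX2, the activator of AURKA, had 30.7 and 23.7 CPM against 54.7 and 59.6 CPM in the controls (-1.07, SE 0.20). NUSAP1, which bundles microtubules near the chromosomes, had 19.0 and 18.0 CPM against 34.1 and 33.6 CPM in the controls (-0.87, SE 0.17). ECT2 and PRC1, which organise the cleavage furrow and the central spindle, differed by -1.04 (SE 0.21) and -0.99 (SE 0.21). ANLN, the scaffold of the contractile ring, stood at 38.1 and 38.2 CPM in the exposed libraries against 88.3 and 52.5 CPM in the controls (-0.88, SE 0.28), so its spread lay in the controls. The proliferation marker MKI67, which coats mitotic chromosomes, stood at 141 and 103 CPM against 213 and 241 CPM in the controls (-0.90, SE 0.21).

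**Figure D2:**
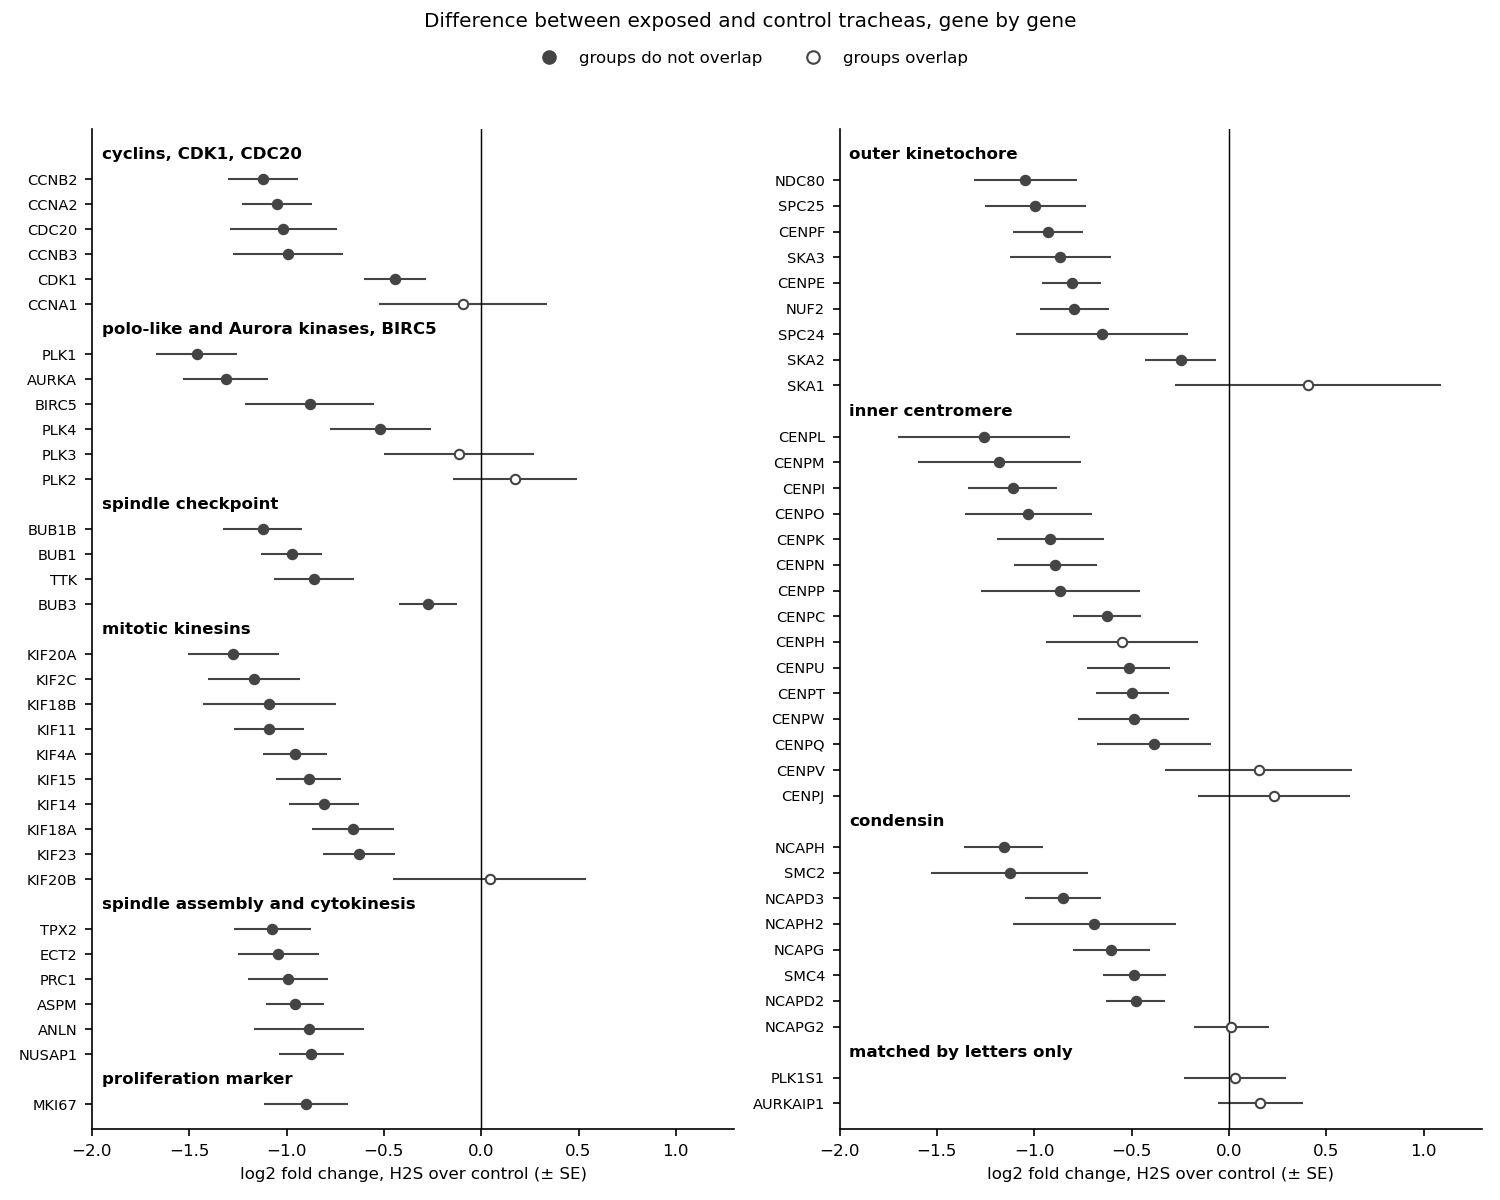
Log2 fold change of each tested mitosis gene, hydrogen sulfide over control, with its standard error from the edgeR fit, grouped by role. Filled points mark the 56 genes whose groups do not overlap, which all lie left of 0, and open points the 11 whose groups overlap.

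The outer kinetochore is the layer that grips microtubules, and 8 of its 9 genes were lower without overlap, against 17.2% of all genes tested. NUF2, of the NDC80 complex, showed the tightest replicates, at 15.1 and 15.1 CPM in the exposed libraries against 26.2 and 26.1 CPM in the controls (log2 fold change -0.79, SE 0.18). NDC80 itself, at 26.9 and 17.1 CPM against 45.6 and 45.2 CPM in the controls (-1.05, SE 0.27), and SPC25 (-0.99, SE 0.26) differed by similar factors, and SPC24 by -0.65 (SE 0.44). CENPE, the kinesin of the kinetochore, stood at 29.5 and 29.7 CPM against 51.4 and 52.3 CPM in the controls (-0.81, SE 0.15). CENPF, a large kinetochore protein, stood at 35.6 and 39.3 CPM against 78.5 and 63.9 CPM in the controls (-0.93, SE 0.18). In each gene of this paragraph both exposed libraries lay below both controls.

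The remaining 3 genes encode the SKA complex, which tracks microtubule ends beside NDC80. The log2 fold change was -0.87 for SKA3 (SE 0.26) and -0.25 for SKA2 (SE 0.18), both lower without overlap. SKA1 stood at 5.37 and 1.45 CPM in the exposed libraries and at 2.78 and 2.36 CPM in the controls (0.40, SE 0.68), so a single library was the highest and its group mate the lowest. The reference table places SKA1 on the W chromosome, and nothing in the sources used here says how reads were divided between sex chromosome copies, so its value is uncertain.

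The list labelled inner centromere in the figures holds mainly genes of the inner kinetochore, the layer next to the centromere. CENPJ, described below, is counted in it. Of 15 tested, 12 were lower without overlap, against 17.2% of all genes tested, and the median log2 fold change was -0.63. CENPI, a subunit of the constitutive centromere network, stood at 6.44 and 6.20 CPM in the exposed libraries against 13.3 and 14.0 CPM in the controls (-1.11, SE 0.23). CENPN, which reads the centromeric nucleosome, had 11.8 and 11.3 CPM against 19.4 and 23.5 CPM in the controls (-0.89, SE 0.21). CENPC, the scaffold of the inner kinetochore, had 17.7 and 19.3 CPM against 29.0 and 28.3 CPM in the controls (-0.63, SE 0.18). In each of these the exposed libraries lay within a narrow band well under the controls.

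CENPL, CENPM, CENPO and CENPK, of the same network, had log2 fold changes from -1.26 to -0.92, the first 2 with standard errors above 0.4. CENPP, CENPU, CENPT, CENPW and CENPQ ran from -0.87 to -0.39, and of these 5 CENPT alone had an unadjusted edgeR p under 0.05. CENPA, the histone H3 variant that defines the centromere, was not tested: its reads numbered 3 and 0 after exposure, against 7 and 12 in the control pair. A count of 0 allows up to 0.136 CPM in that library (3 reads, counting error only).

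CENPJ and CENPV were not lower. CENPJ, which despite its name acts in centriole growth, stood at 24.6 and 42.4 CPM in the exposed libraries and 21.1 and 36.0 CPM in the controls (log2 fold change 0.23, SE 0.39). CENPV stood at 18.3 and 12.5 CPM in the exposed libraries and 19.5 and 8.20 CPM in the controls (0.15, SE 0.48). The libraries of both groups interleaved for CENPJ, and for CENPV both exposed libraries lay between the controls.

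Condensin, the ring complex that compacts chromosomes, had lower levels without overlap for 7 of its 8 subunits, against 17.2% of all genes tested. NCAPH, the kleisin of condensin I, stood at 13.2 and 12.0 CPM in the exposed libraries against 25.7 and 30.4 CPM in the controls (log2 fold change -1.16, SE 0.20). NCAPD3, of condensin II, had 18.5 and 15.2 CPM against 30.7 and 30.2 CPM in the controls (-0.85, SE 0.19), and NCAPD2, of condensin I, 43.1 and 39.1 CPM against 57.4 and 57.2 CPM (-0.48, SE 0.15). SMC4, an ATPase shared by both condensins, differed by -0.49 (SE 0.16), and NCAPG of condensin I by -0.60 (SE 0.20). NCAPH2, of condensin II, had -0.69 (SE 0.42).

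NCAPG2, a subunit of condensin II, took far more reads than any other member and did not differ between the groups by more than their spread. It stood at 303 and 375 CPM in the exposed libraries and 325 and 348 CPM in the controls (log2 fold change 0.01, SE 0.19), and held 11.0% to 19.2% of all reads of the set in a library. Levels were not set per transcript length, so this is a share of reads and not of molecules.

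The remaining 2 genes entered by their letters. AURKAIP1, a mitochondrial ribosome protein named for binding AURKA, stood at 17.1 and 14.2 CPM in the exposed libraries and 13.4 and 14.5 CPM in the controls (log2 fold change 0.16, SE 0.22). PLK1S1, an older symbol of the centrosome protein gene KIZ, stood at 39.6 and 62.8 CPM in the exposed libraries and 52.9 and 47.3 CPM in the controls (0.03, SE 0.26). Groups overlapped in both. Without these 2, the median of the 65 tested members was -0.87.

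The groups were also compared between libraries of like sex chromosome level. In these comparisons the median log2 ratio of the 67 genes was -0.78 for hydrogen sulfide replicate 1 over control replicate 2 and -0.84 for hydrogen sulfide replicate 2 over control replicate 1. Over all genes tested the same medians were 0.00486 and -0.0213. In both comparisons, 57 of the 67 were lower and 2 higher, against 23.9% of all genes tested that were lower in both. These ratios were taken on CPM plus 0.5. A gene with both exposed libraries below both controls is lower in both comparisons by construction. The count of 57 therefore repeats the 56 genes lower without overlap and adds only CENPH. With the sex chromosome level as a covariate, added after the data were seen, 37 of the 67 were lower with an unadjusted edgeR p under 0.05, against 2.56% of all genes tested.

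Of the 65 members found in the reference table, 4 lie on the Z chromosome, of which hens have a single copy. SMC2, the other condensin ATPase, stood at 39.9 and 64.6 CPM in the exposed libraries against 149.6 and 78.4 CPM in the controls (log2 fold change -1.13, SE 0.40). Its spread within each group was large. Its log2 ratio was -0.97 in the first within-level comparison and -1.21 in the second. Both are negative by construction, since its groups did not overlap. CENPH, a centromere network subunit whose groups overlapped at 5.84 and 7.60 CPM in the exposed libraries and 12.8 and 6.90 CPM in the controls, had ratios of -0.22 and -0.71. CENPK, its binding partner, had -0.82 and -0.91, and PLK2 0.14 and 0.19. Across the whole set the median size of the log2 ratio within a group was 0.25 in the exposed pair and 0.18 in the control pair. Over all genes tested it was 0.25 and 0.32, so the set lay closer than all genes in the control pair only.

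**Figure D3:**
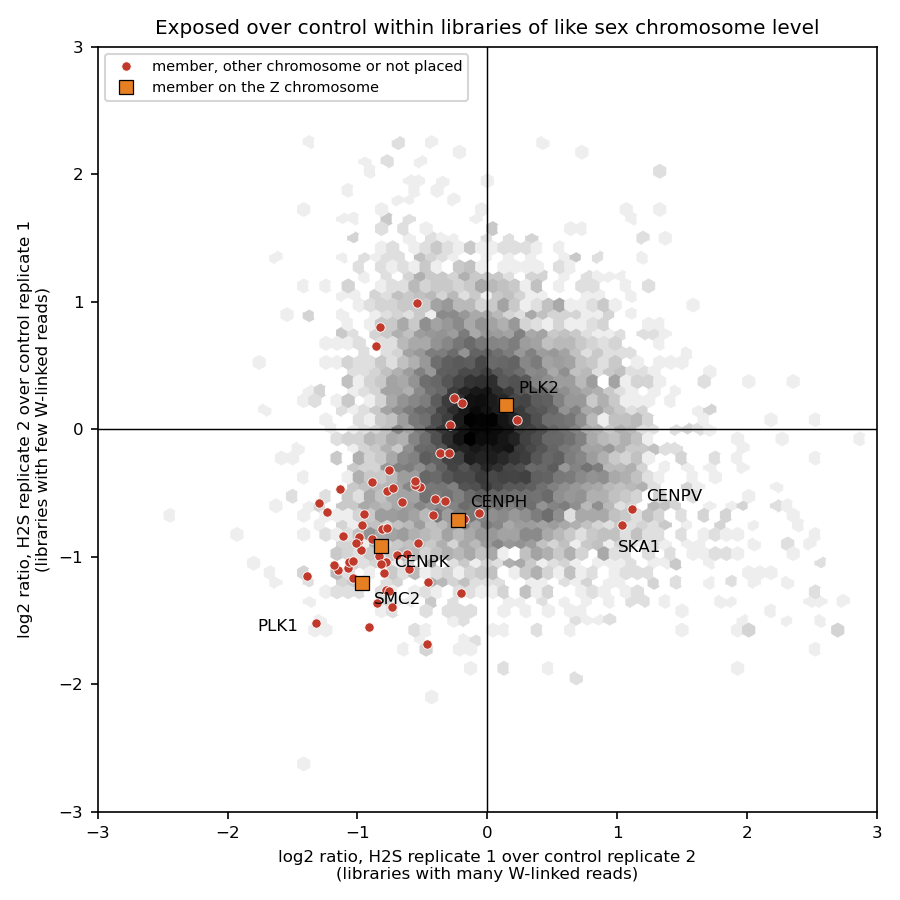
Log2 ratio of exposed over control within the libraries rich in W-linked reads (x axis) and within those poor in them (y axis), for the mitosis genes (red points, orange squares on the Z chromosome) and for all tested genes (grey, darker with more genes, log scale). Of the 67 genes, 57 fall in the lower left part, with SMC2, CENPK and CENPH among them, while PLK2 lies in the upper right part and SKA1 and CENPV in the lower right.

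Companion lists of the wider cell cycle were drawn up by function, with earlier results of these data known. Genes named from them were picked mainly for a small edgeR p, so they are not typical of their list. Among 54 other mitosis genes, 28 were lower and 1 higher at an unadjusted edgeR p under 0.05, 40 were lower without overlap, and the median log2 fold change was -0.81. Over all genes tested, 3.48% were lower and 2.12% higher at that p, and 17.2% were lower without overlap. TOP2A, the topoisomerase that untangles chromatids, stood at 94.5 and 81.7 CPM in the exposed libraries against 174 and 211 CPM in the controls (-1.13, SE 0.18). The log2 fold change of CASC5, the kinetochore scaffold also known as KNL1, was -1.02 (SE 0.17), and that of GTSE1, a microtubule-binding protein of mitosis, was -1.32 (SE 0.22). The gene that was higher was INCENP, the scaffold of the passenger complex, at 806 and 953 CPM in the exposed libraries against 565 and 423 CPM in the controls (0.83, SE 0.25). Its neighbour in the reference table, INCENPL, has a similar name, and no source used here says how reads were assigned to the 2.

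DNA replication genes had the same direction, with a median of -0.71. Of 37, 25 were lower and 0 higher at an unadjusted edgeR p under 0.05, against 3.48% and 2.12% of all genes tested. MCM5 and MCM3, subunits of the replicative helicase, differed by -0.98 (SE 0.18) and -0.80 (SE 0.16) in log2 fold change, and the helicase component CDC45 by -0.81 (SE 0.18). Of 23 transcription factors that drive or restrain these genes, 7 were lower and 0 higher at an unadjusted edgeR p under 0.05. Their median was -0.23, and the shares over all genes tested were the same 3.48% and 2.12%. FOXM1, an activator of the mitotic genes, stood at 6.85 and 7.51 CPM in the exposed libraries against 16.8 and 16.1 CPM in the controls (-1.20, SE 0.22). E2F2 had -1.58 (SE 0.37) and E2F8 -0.78 (SE 0.20), and MYBL2, a partner of FOXM1, -0.78 (SE 0.22).

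Other lists held complexes and regulators that also serve cells between divisions. Cohesin and its loaders, which act in interphase chromosomes as well, had a median log2 fold change of -0.10. Of 12, 0 were lower and 0 higher at an unadjusted edgeR p under 0.05, against 3.48% and 2.12% of all genes tested. Without overlap, 3 of the 12 were lower, against 17.2% of all genes tested. The smallest p on the cohesin list was that of RAD21, with -0.32 (SE 0.14). The anaphase-promoting complex had 1 of 12 lower at an unadjusted edgeR p under 0.05, against 3.48% of all genes tested, and a median of -0.13. The exception was its interphase activator FZR1 (-0.50, SE 0.16). Without overlap, 5 of the 12 were lower and 2 higher, against 17.2% and 15.3% of all genes tested. Of 13 G1 cyclins and inhibitors, 4 were lower and 0 higher at an unadjusted edgeR p under 0.05. Over all genes tested the shares were 3.48% and 2.12%. This list had a median of -0.09. Without overlap, 6 of the 13 were lower and 2 higher, against 17.2% and 15.3% of all genes tested. CCNE2, a cyclin of S phase entry, stood at 2.87 and 3.48 CPM in the exposed libraries against 7.85 and 8.79 CPM in the controls (-1.39, SE 0.29). CCNE1, on the same list, had log2 ratios of 0.26 and -0.43 in the 2 comparisons between libraries of like sex chromosome level. CDKN1A, the p53-induced inhibitor, stood at 39.0 and 32.5 CPM in the exposed libraries and 24.6 and 28.9 CPM in the controls (0.42, SE 0.19).

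In multiciliated cell differentiation, cells that have stopped dividing reuse parts of the mitotic machinery to make centrioles. Its genes had a median log2 fold change of -0.15. Of 14, 1 was lower at an unadjusted edgeR p under 0.05, against 3.48% of all genes tested. That gene was GMNC, an early regulator of the fate, at 7.83 and 6.56 CPM in the exposed libraries against 23.0 and 10.9 CPM in the controls.

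Markers of lymphocytes differed in the same direction as the mitosis genes. Of 21 tested markers of B cells and plasma cells, 21 were at a lower level, 18 of them without overlap, with a median log2 fold change of -0.97. Their summed level, mostly from the immunoglobulin chain genes IGLL1 and IGJ, was 2449 to 2881 CPM in the exposed libraries and 11722 to 13305 CPM in the controls, and none was at 0. Of 25 markers of T cells and natural killer cells, 22 had a lower fitted level, 10 were lower without overlap and 6 were lower at an unadjusted edgeR p under 0.05 (median -0.39). Their summed level was 346 to 373 CPM in the exposed libraries and 410 to 567 CPM in the controls. Of 15 macrophage and dendritic cell markers, 13 had a lower fitted level, 9 were lower without overlap and 7 were lower at an unadjusted edgeR p under 0.05 (median -0.42). Their summed level was 351 to 453 CPM in the exposed libraries and 570 to 645 CPM in the controls. Over all genes tested, 48.4% had a lower fitted level, 17.2% were lower without overlap and 3.48% were lower at that p. The part of any cell type in the lower mitosis levels was not tested. Thymocyte and thymic stroma markers, for a gland that lies beside the trachea in birds, summed to 6.35 to 7.37 CPM in the exposed libraries and 6.60 to 7.73 CPM in the controls, with 4 to 14 reads of RAG1 in any library. Of the 5 tested, 4 had a lower fitted level (median -0.55). Without overlap, 2 were lower and 1 was higher, the latter against 15.3% of all genes tested.

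Epithelial and stromal markers were measured in the same way. Basal cell markers, for the dividing cells of the airway lining, had a median of 0.08, with 4 of 10 lower and a summed level of 582 to 836 CPM in the exposed libraries and 701 to 703 CPM in the controls. Ciliated cell markers had a median of 0.07, fibroblast markers 0.06 and endothelial markers 0.18. Mucous cell markers had a median of 1.81, with all 9 tested higher and summed levels of 4043 to 6065 CPM in the exposed libraries against 1173 to 1963 CPM in the controls. Cartilage and skeletal muscle markers varied most between libraries of a group, with 5787 and 32410 CPM of cartilage markers in control replicates 1 and 2, and 6525 and 1012 CPM of muscle markers in the same libraries. Hydrogen sulfide replicates 1 and 2 had 19184 and 29036 CPM of cartilage markers, and 6958 and 3046 CPM of muscle markers. All 11 cartilage markers (median 0.38) and all 10 muscle markers (median 0.48) had a higher fitted level, 0 and 1 of them without overlap. The 68 mitosis genes summed to 1861 and 1949 CPM in the exposed libraries and 2939 and 2925 CPM in the controls. All 3 tested thyroid markers, of another gland near the trachea, had a lower fitted level (median -0.80), 1 of them without overlap, and summed to 7.96 to 17.2 CPM in the exposed libraries and 19.2 to 21.8 CPM in the controls. All 6 tested erythroid markers had a higher fitted level (median 0.66), 1 of them without overlap, and summed to 46.2 to 103 CPM in the exposed libraries and 45.3 to 51.5 CPM in the controls. Over all 16545 genes tested, 8541 had a higher fitted level and 48.4% a lower one. Without overlap, 15.3% of all genes tested were higher and 17.2% were lower.

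**Figure D4:**
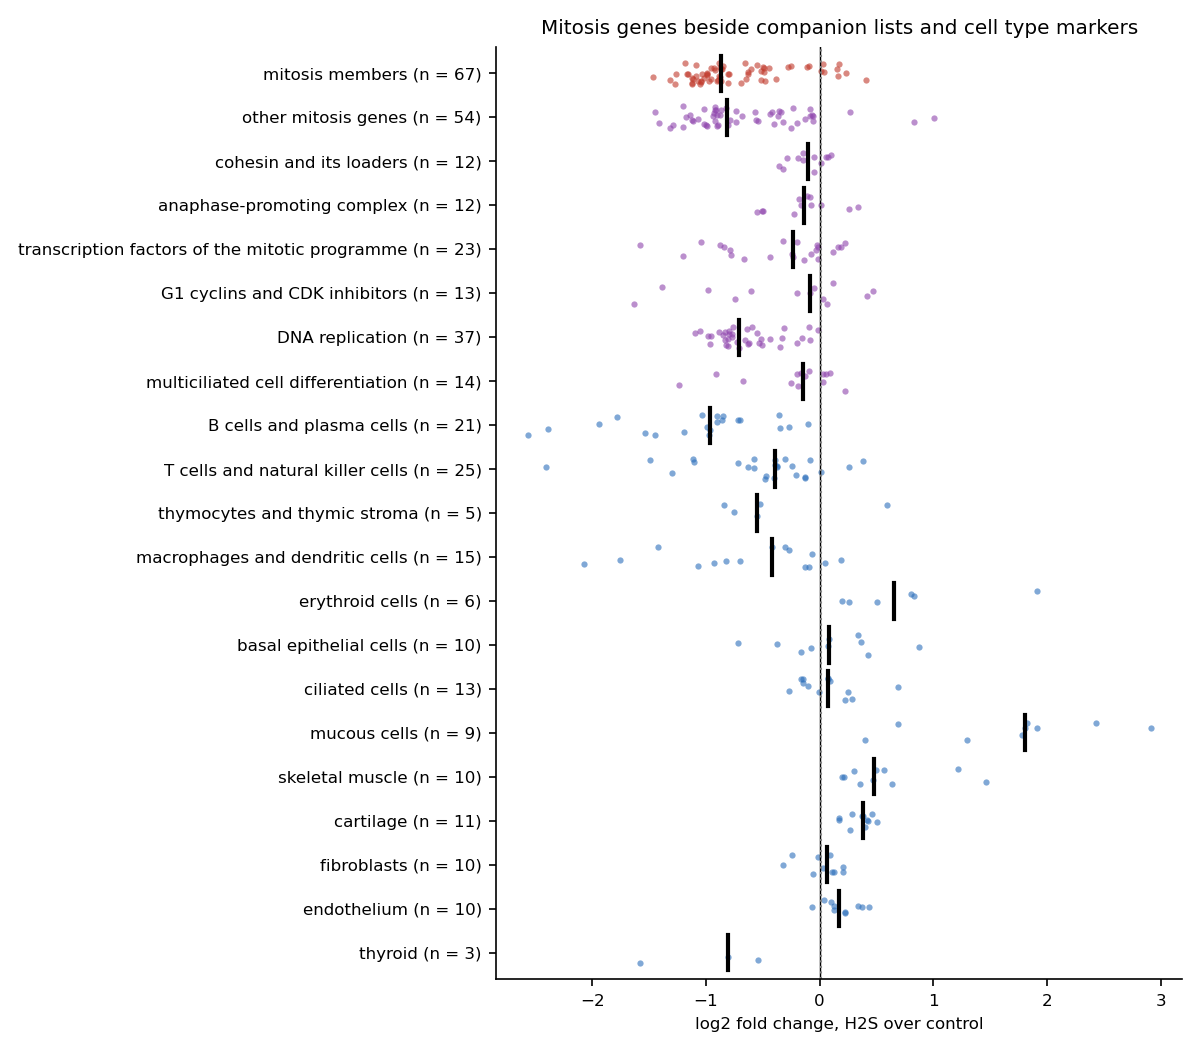
Log2 fold change, hydrogen sulfide over control, of each tested gene in the mitosis set (red), in companion lists of the cell cycle (purple) and in cell type marker lists (blue), with the median of each list as a black bar and that of all tested genes as a dotted line. The medians of the mitosis set, other mitosis genes, DNA replication genes, B cell markers and thyroid markers lie from -0.97 to -0.71. That of thymocyte markers lies at -0.55 and that of mucous cell markers at 1.81.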

How the data were processed

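RNA sequencing of 4 chicken trachea libraries gave raw read counts per gene, deposited by the authors in a single table without normalization. The submitters' processing notes name HISAT2. No source used here gives the counting program, genome build, annotation or strand setting, so reads of the 21 mitosis genes that overlap another gene in the reference table are uncertain. Members, lists and the rule for named genes were chosen with earlier results of these data known. That rule takes PLK1, AURKA, KIF20A and MKI67, and of each role list the gene of highest level, the 3 of smallest p and every gene that was higher or overlapped. Of each companion list it takes the 3 genes of smallest edgeR p and higher genes of interest.

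Counts were tested with edgeR 4.0.16 in R 4.3.3 (glmQLFit, glmQLFTest, current dispersion method), after filterByExpr and TMM, without covariates, leaving 2 residual degrees of freedom, and p-values were adjusted over 16545 genes by Benjamini-Hochberg. The fits were also run on simulated counts with less spread than these data. That run served to check the size of the fold changes and cannot give the rate of missed or false calls here. The SE was taken as the size of the log2 fold change over the root of the F statistic. Alternatives were DESeq2 1.42.0, limma-voom 3.58.1, other scalings, no filter, each library left out, and blocks. With 2 libraries against 2, an exact permutation test cannot go below p = 0.333. The common biological coefficient of variation was 33.1%. Of the list entries, 383 matched by symbol, 15 through the reference table and 43 not at all.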

Additional observations from a re-analysis of the deposited data

How the results depend on the processing

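Of the 59 mitosis genes with a lower level, 57 kept that direction in every alternative run (2 other scalings, no filter on low counts, DESeq2, limma-voom, each library left out, the replicate block and the sex chromosome covariate). The exceptions were CCNA1, from -0.65 to 0.31 when a library was left out, and PLK3, from -0.52 to 0.34. Genes near or above 0 turned too when a library was left out: CENPJ ran from -0.21 to 0.66, CENPV from -0.35 to 0.92, KIF20B from -0.60 to 0.49, NCAPG2 from -0.15 to 0.16, PLK1S1 from -0.34 to 0.33, PLK2 from -0.18 to 0.51 and SKA1 from -0.82 to 1.06. Scaled by library totals, the log2 fold change was -0.031 for KIF20B, -0.068 for NCAPG2 and -0.053 for PLK1S1. With limma-voom KIF20B was at -0.0067 and PLK1S1 at -0.0049. With the sex chromosome covariate, chosen after the data were seen, they were at -0.014 and -0.0044, and with the replicate block at -0.0119 and -0.0044. The cause of these turns was not tested.

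Calls at an adjusted p under 0.05 were 0 in every edgeR and limma-voom fit (926 genes at an unadjusted p under 0.05 with edgeR and 891 with limma-voom), and with DESeq2 132, of which 12 were mitosis genes. Leaving out a library gave 24 to 35 mitosis genes lower at an unadjusted p under 0.05, in place of 47, with 1 residual degree of freedom and the lone library of a group assumed to vary like the others. The median log2 fold change then ran from -0.91 to -0.80. Between libraries of the same number, deviations from the group mean had a correlation of 0.073 over all tested genes. The opposite pairing gives -0.073, because the 2 libraries of a group deviate by equal and opposite amounts. This value cannot tell whether the replicate number pairs the libraries. With the replicate block 44 of 67 were lower at an unadjusted p under 0.05, against 3.21% of all genes tested, with a median of -0.87 and 0 genes called. The count of 56 lower without overlap is taken from the levels alone, so the block cannot change it. With library totals the median of all tested genes was -0.071. Low counts limit CENPA, CENPP, SPC24, CENPM and SKA1.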

Other observations

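Several other cell cycle genes that the reference table places on the Z chromosome are described here. They were chosen after their values were seen. DEPDC1B, a regulator of cell adhesion at mitotic entry, stood at 6.39 and 13.3 CPM in the exposed libraries and 19.9 and 9.38 CPM in the controls, so the groups overlapped. Within libraries of like sex chromosome level its log2 ratios were -0.52 and -0.56. MELK, a kinase of dividing cells, stood at 6.90 and 9.09 CPM in the exposed libraries against 24.4 and 12.5 CPM in the controls, with ratios of -0.81 and -1.38. CDC20B, a CDC20 relative of multiciliated cells, stood at 1.81 and 8.14 CPM in the exposed libraries and 13.2 and 5.55 CPM in the controls, with ratios of -1.39 and -0.66. CCNO, a cyclin of the same cells, gave 0.47 and -0.98 and thus opposite directions.

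KIFC1, a minus-end-directed spindle kinesin, was 1 of 3 genes on the list of other mitosis genes with a higher fitted level, at 9.68 and 5.34 CPM in the exposed libraries and 5.78 and 1.65 CPM in the controls (log2 fold change 1.01, SE 0.68), with groups that overlapped. The reference table places it on chromosome 16, as it does CENPA, whose neighbours there include the major histocompatibility complex genes BF2 and TAP2.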
